A study of Mus musculus with 14 samples.

Results

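In mouse hepatocellular carcinoma (HCC) cells, 66 gene symbols were low in each of 3 knockout genotypes compared with WT. They were chosen by the measured values themselves. A symbol was kept when its WT mean was at least 20 normalized counts and when the means of ACLY KO, ACSS2 KO and DKO1 were each at most 0.4 of the WT mean. Symbols beginning with Gj were left out by this rule. The 66 members were 0.565% of the 11672 symbols with a WT mean of at least 20, and the deposited table held 24946 symbols that could be used. Because the rule used every comparison of a knockout with WT, the levels against WT are given below as a description with no test. Only differences between knockout genotypes were tested. The rule did not compare these genotypes with each other, but its limit on each knockout mean bears on their differences.

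Poly(A) RNA was sequenced as 75-base single-end reads in 14 libraries, of which 4 were WT, 3 ACSS2 KO, 4 ACLY KO and 3 DKO1. All cells descended from Acly flox/flox tumor cells of mice given diethylnitrosamine, and all were grown for 24 hours in DMEM with 10% calf serum before RNA was extracted. WT (line D42V) and ACLY KO (line D42C4V) were populations that carried an empty LentiCRISPR v2 vector, and the ACLY KO cells came from a single-cell clonal population made with adenoviral Cre. ACSS2 KO (line D42 Sg2-3) and DKO1 (line D42C4 Sg2-2) were single-cell clones made with a guide against the first exon of Acss2, and DKO1 was derived from the ACLY KO cells. Each knockout genotype was thus represented by the descendants of a single cell, whereas WT was not, so genotype and clone cannot be told apart here. Per the methods, sequencing was not repeated in an independent experiment, and nothing says that the libraries of a genotype came from separate cultures, so p-values measure the spread between libraries, which may be technical.

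Cytosolic and nuclear acetyl-CoA, the donor of acetyl groups for fatty acid synthesis and for histone acetylation, is made from citrate by ATP-citrate lyase (ACLY) and from acetate by acyl-CoA synthetase short-chain family member 2 (ACSS2). Histone acetylation is associated with open chromatin and active transcription. HCC arises from hepatocytes, whose identity depends on transcription factors such as HNF4α and whose contacts depend on E-cadherin, while nestin, an intermediate filament of progenitor cells, can appear in dedifferentiated liver tumors.

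The targeted genes were checked before the members. Acly had 6049.7 ± 423 normalized counts (SD, n = 4) for WT, 5684 ± 124 (SD, n = 3) for ACSS2 KO, 1001 ± 56.1 (SD, n = 4) for ACLY KO and 946 ± 12.9 (SD, n = 3) for DKO1. It was not a member, since ACSS2 KO kept 94.0% of the WT mean. Acss2 had 237 ± 11.5 normalized counts (SD, n = 4) for WT, 132 ± 4.88 (SD, n = 3) for ACSS2 KO, 718 ± 56.7 (SD, n = 4) for ACLY KO and 535 ± 69.1 (SD, n = 3) for DKO1. The Acss2 message was therefore reduced in ACSS2 KO but higher in ACLY KO and DKO1 than in WT, and an edit in the first exon need not remove the message.

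The labelled cell type was compared with its markers. Among hepatocyte products, Alb (albumin) had a WT mean of 31.4 normalized counts, Ttr 1.78 and Apoa1 0.62, and Ahsg and Cps1 were listed at 0 in WT. The epithelial keratins Krt8, Krt18 and Krt19 had WT means of 26051, 27537 and 11015, and Foxa1, a liver pioneer factor, had 672. Of 10 leukocyte markers, 3 had a WT mean of at least 20, namely the receptor gene Csf1r (1158), Cd14 (253.5) and Cd68 (48.7), while Ptprc had 4.45 and Cd3e 0.29, and Adgre1, Lyz2 and Itgam were listed at 0 in WT. Of 9 endothelial markers, 1 had a WT mean of at least 20 (Eng, 31.3), and Cdh5 had 1.54. None of the members stood on the leukocyte (10 genes), endothelial (9 genes) or fibroblast and stellate cell (13 genes) lists. The summed fibroblast and stellate cell list nevertheless lay between 2196 and 2515 for WT libraries and between 2153 and 2254 for DKO1. It was higher for ACLY KO (3622 to 3989) and ACSS2 KO (5319 to 6248), mostly through different genes. Acta2 had a mean of 4454 for ACSS2 KO and 630 for ACLY KO, against 1657 for WT. Col1a1 had a mean of 2454 for ACLY KO and 523 for ACSS2 KO, against 428 for WT. The higher sums therefore do not describe a rise shared by the listed genes. The summed leukocyte list, mostly Csf1r and Cd14, lay between 1408 and 1522 for WT, 1352 and 1422 for ACLY KO, 1602 and 1713 for ACSS2 KO and 1468 and 1795 for DKO1. The summed endothelial list lay between 58.6 and 68.2 for WT, 186 and 207 for ACLY KO, 64.3 and 70.5 for ACSS2 KO and 145 and 195 for DKO1. Their part in the members' levels was not tested. In bulk RNA, fewer cells that express a gene and less RNA per cell cannot be told apart.

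Promoters of 4 members are shown because these genes represent the highest WT level (Nes), the widest difference between ACSS2 KO and DKO1 (Slc16a3), a secreted factor that was higher in DKO1 than in both single knockouts (Inhba) and the hepatocyte factor of the set (Hnf4a). Each is the 250 bases before the annotated RefSeq start on the plus strand of GRCm38.p6, read 5′ to 3′, at chr3:87970843-87971092 (Nes), chr11:120948817-120949066 (Slc16a3), chr13:16011601-16011850 (Inhba) and chr2:163506607-163506856 (Hnf4a). Capitals mark matches on either strand to a GC box (GGGCGG, or CCGCCC on the other strand), a CCAAT box (ATTGG on the other strand) or a TATA box (TATAAA).
Nes: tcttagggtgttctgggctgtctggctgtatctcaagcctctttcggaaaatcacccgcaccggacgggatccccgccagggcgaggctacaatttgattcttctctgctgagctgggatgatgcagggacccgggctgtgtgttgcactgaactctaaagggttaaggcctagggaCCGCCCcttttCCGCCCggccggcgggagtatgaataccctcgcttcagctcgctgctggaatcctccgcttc
Slc16a3: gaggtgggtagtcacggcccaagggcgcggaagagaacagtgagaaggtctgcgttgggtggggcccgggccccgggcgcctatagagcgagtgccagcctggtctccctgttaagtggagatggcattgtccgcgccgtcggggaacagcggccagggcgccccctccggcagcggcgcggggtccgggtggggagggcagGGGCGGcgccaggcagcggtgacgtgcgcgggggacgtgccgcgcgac
Inhba: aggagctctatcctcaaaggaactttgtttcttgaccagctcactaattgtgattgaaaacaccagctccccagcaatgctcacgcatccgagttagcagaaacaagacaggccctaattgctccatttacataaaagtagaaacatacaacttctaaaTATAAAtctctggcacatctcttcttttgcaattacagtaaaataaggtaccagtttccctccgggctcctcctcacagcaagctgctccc
Hnf4a: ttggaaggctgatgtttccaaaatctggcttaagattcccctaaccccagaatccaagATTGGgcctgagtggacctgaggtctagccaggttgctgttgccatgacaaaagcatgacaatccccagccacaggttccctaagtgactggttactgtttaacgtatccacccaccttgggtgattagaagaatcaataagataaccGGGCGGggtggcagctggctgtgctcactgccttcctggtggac
Nes held 2 GC boxes and Slc16a3 held 1, while Inhba held a TATA box and no GC box. The RefSeq table lists 2 starts for Hnf4a, of which the one shown held a CCAAT box and a GC box. Gene spans given below cover every RefSeq transcript model, so those of Slc16a3, Inhba and Hnf4a begin upstream of the starts used here. A match of letters is a description of the sequence and not of a bound factor.

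The levels left in the knockouts were a small share of WT. Over the 66 members, the median level was 12.1% of the WT mean for ACLY KO (range 4.50 to 39.5%), 21.02% for ACSS2 KO (range 2.46 to 39.8%) and 12.2% for DKO1 (range 3.91 to 37.3%). Over all 11672 symbols with a WT mean of at least 20, these medians were 97.2, 98.9 and 99.3%. At most 10% of the WT mean was left for 25, 11 and 27 members of ACLY KO, ACSS2 KO and DKO1 respectively, and for 9 members in all 3 genotypes. At most 20% was left in all 3 genotypes for 24 members, and more than 20% in all 3 for 5. ACSS2 KO had the highest knockout mean for 41 members, DKO1 for 13 and ACLY KO for 12.

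Few symbols were low in ACSS2 KO, so the members formed a large share of them. A mean at most 0.4 of the WT mean was found for 588 symbols (5.04%) of ACLY KO, 132 (1.13%) of ACSS2 KO and 640 (5.48%) of DKO1. The members were 11.2, 50 and 10.3% of these lists. All 3 lists were set against the same 4 WT libraries, so they are not independent. For 65 members every knockout library lay under every WT library, which held for 6.96% of all symbols with a WT mean of at least 20, and the rule itself fixes most of this. The exception was Amd1, described below.

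**Figure D1:**
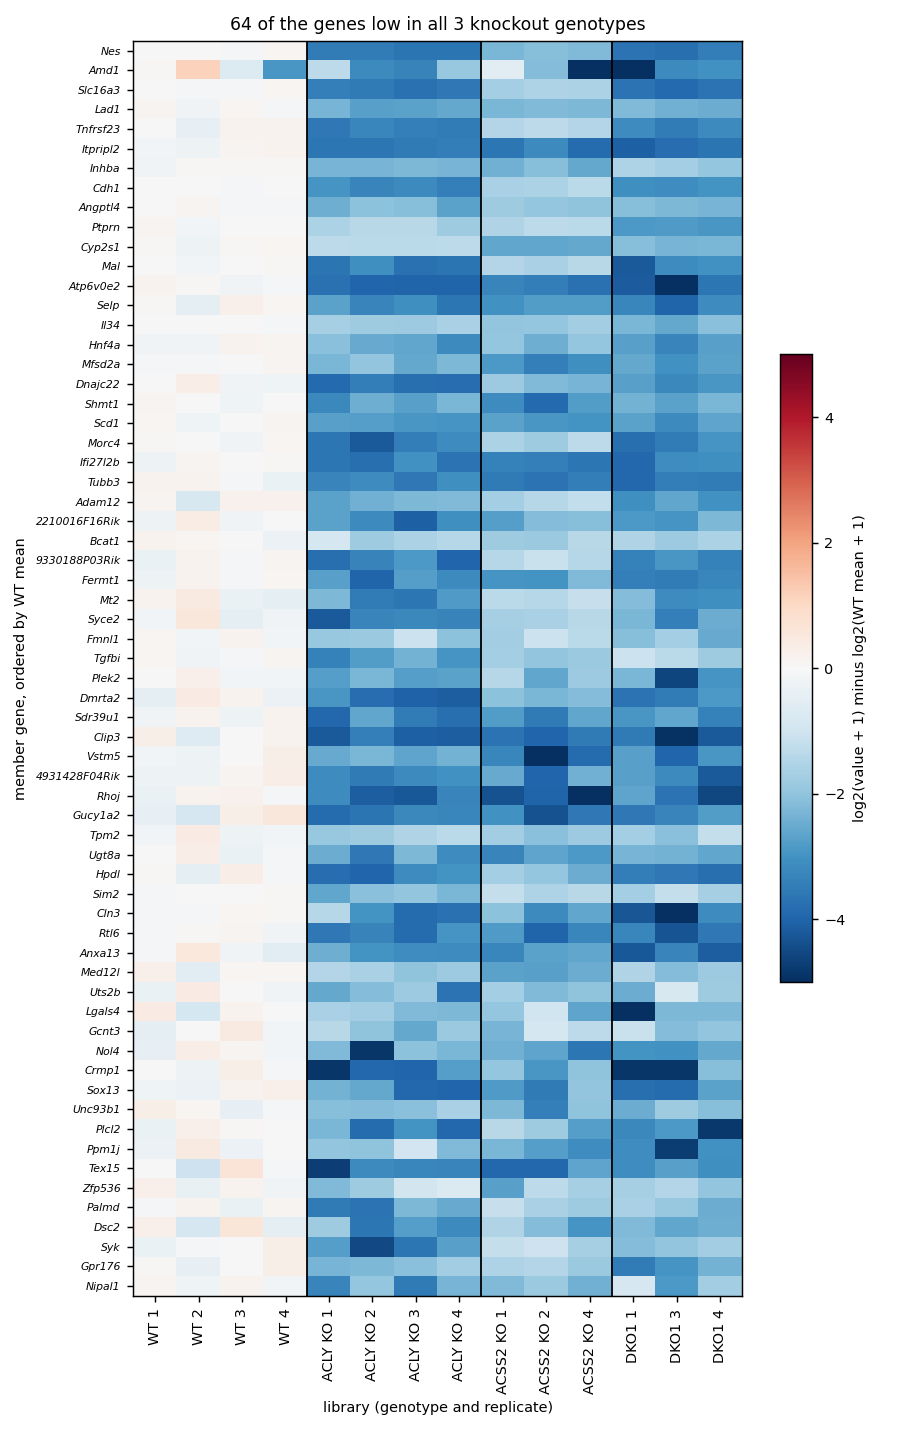
Rows are 64 of the members ordered by WT mean and columns are the 14 libraries, and color gives log2(value + 1) minus log2(WT mean + 1). Nearly all knockout squares are blue, with the ACSS2 KO columns paler for members such as Mal, Morc4 and Cdh1, and Amd1 varies within every genotype.

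Members that build or anchor the cytoskeleton and cell contacts included the most abundant of the set. Nes, encoding nestin (chromosome 3 from 87971093 to 87980451, GRCm38), had 5836, 5982, 5796 and 6369.8 normalized counts in WT, 533, 525, 472 and 472 for ACLY KO, 1222, 1359 and 1283 for ACSS2 KO and 464, 438 and 548 for DKO1. Every knockout library lay far below WT, and the ACSS2 KO libraries formed a level of their own above ACLY KO and DKO1, with means of 8.35% for ACLY KO, 21.5% for ACSS2 KO and 8.06% for DKO1. Cdh1, encoding the epithelial adhesion molecule E-cadherin (chromosome 8 from 106603350 to 106670247), had 559, 550.2, 529 and 547 normalized counts in WT, 70.7, 54.7, 59.9 and 49.6 for ACLY KO, 179, 179.7 and 213 for ACSS2 KO and 64.4, 63.5 and 67.9 for DKO1. Its order was the same, with 10.7% for ACLY KO, 34.9% for ACSS2 KO and 11.9% for DKO1, and the 3 ACSS2 KO libraries did not overlap those of the other knockouts.

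Lad1, which encodes the basement membrane anchoring protein ladinin 1 (chromosome 1 from 135818598 to 135833341), had 1240.1, 1008, 1213 and 1079 normalized counts in WT, 226, 171, 178 and 193 for ACLY KO, 229, 243 and 239.8 for ACSS2 KO and 243, 212 and 200.1 for DKO1. ACSS2 KO lay just above ACLY KO and DKO1 overlapped both, at 16.9% for ACLY KO, 20.9% for ACSS2 KO and 19.3% for DKO1. Tubb3, a neuron-type β-tubulin, had 141, 139, 118 and 98.2 normalized counts in WT, 11.6, 13.2, 9.36 and 13.8 for ACLY KO, 9.70, 8.65 and 10.4 for ACSS2 KO and 7.30, 10.5 and 10.2 for DKO1. All knockout libraries lay between 7.30 and 13.8, far under the lowest WT library at 98.2, and the knockout genotypes overlapped. Adam12, a cell surface metalloprotease, had 123, 62.8, 127 and 128 normalized counts in WT, 16.5, 19.8, 22.2 and 23.1 for ACLY KO, 32.8, 40.8 and 46.9 for ACSS2 KO and 12.3, 17.3 and 12.7 for DKO1. WT replicate 2 stood apart from the other WT libraries, and still lay above the highest knockout library. Other members of this kind with lower levels were Fermt1 (kindlin-1, an integrin activator), Fmnl1 (a formin), Plek2, Tpm2 (β-tropomyosin), Rhoj (a small GTPase), Clip3 (a microtubule-associated protein), Crmp1, Palmd and Dsc2 (a desmosomal cadherin). Of these, Clip3 kept 5.06% for ACLY KO, 6.04% for ACSS2 KO and 4.15% for DKO1 and Rhoj 6.26% for ACLY KO, 2.46% for ACSS2 KO and 7.57% for DKO1, among the lowest remaining shares of the set, whereas Tpm2 kept 31.4% for ACLY KO, 25.7% for ACSS2 KO and 30.9% for DKO1.

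Secreted factors were a second kind of member. Inhba, which encodes the subunit of activin A (chromosome 13 from 16004256 to 16031609), had 597, 697, 708 and 705 normalized counts in WT, 133, 134, 141 and 135 for ACLY KO, 127, 155 and 115 for ACSS2 KO and 235, 208 and 179 for DKO1. DKO1 libraries lay above those of the single knockouts, with 20.1% for ACLY KO, 19.6% for ACSS2 KO and 30.6% for DKO1. Il34, a ligand of the CSF1 receptor, had 189, 188, 182 and 179 normalized counts in WT, 58.1, 52.8, 50.97 and 59.8 for ACLY KO, 46.5, 47.6 and 54.3 for ACSS2 KO and 36.7, 30.7 and 42.5 for DKO1. WT libraries were tight and all DKO1 libraries lay under all ACLY KO and ACSS2 KO libraries. Csf1r, the receptor gene on the leukocyte list and not a member, had a mean of 1158 in WT and means of 1131, 1303 and 1267 in ACLY KO, ACSS2 KO and DKO1. Angptl4, a secreted inhibitor of lipoprotein lipase, had 397, 437, 375 and 377 normalized counts in WT, 71.5, 95.4, 89.2 and 61.1 for ACLY KO, 115, 103 and 98.7 for ACSS2 KO and 90.1, 83.5 and 77.4 for DKO1. The ACSS2 KO libraries lay just above those of ACLY KO and DKO1, at 19.98% for ACLY KO, 26.6% for ACSS2 KO and 21.1% for DKO1. Tgfbi, a secreted matrix protein induced by TGF-β, had 75.7, 62.7, 66.3 and 78.5 normalized counts in WT, 5.89, 9.41, 12.9 and 8.28 for ACLY KO, 20.9, 17.2 and 18.6 for ACSS2 KO and 32.7, 26.92 and 19.7 for DKO1. DKO1 was the highest knockout, at 37.3% of the WT mean against 12.9% in ACLY KO. Uts2b and Lgals4, encoding a urotensin-like peptide and galectin-4, had WT means of 33.01 and 30.9 and knockout means between 3.84 and 10.8.

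Several members encode surface receptors and membrane proteins. Tnfrsf23, a decoy receptor for the death ligand TRAIL (chromosome 7 from 143665807 to 143686436), had 763, 575, 869 and 872 normalized counts in WT, 64.04, 78.95, 71.5 and 68.1 for ACLY KO, 275, 308 and 281 for ACSS2 KO and 86.1, 67.4 and 83.6 for DKO1. Its levels were 9.18% for ACLY KO, 37.4% for ACSS2 KO and 10.3% for DKO1, and ACSS2 KO did not overlap the other knockouts. Mal, a proteolipid of apical membrane transport (chromosome 2 from 127633226 to 127656695), had 302, 269.7, 303 and 306 normalized counts in WT, 22.5, 34.8, 21.1 and 22.8 for ACLY KO, 105, 95.4 and 112 for ACSS2 KO and 15.3, 32.2 and 35.7 for DKO1. It followed the same order, at 8.55% for ACLY KO, 35.2% for ACSS2 KO and 9.39% for DKO1. Ptprn, a catalytically inactive phosphatase-like protein of secretory granules, had 414, 347, 384 and 373 normalized counts in WT, 124, 144, 146 and 111 for ACLY KO, 133, 154 and 147 for ACSS2 KO and 50.7, 52.01 and 49.96 for DKO1. Here ACLY KO and ACSS2 KO overlapped and DKO1 was the low genotype, with 34.6% for ACLY KO, 38.2% for ACSS2 KO and 13.4% for DKO1.

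Selp, encoding the adhesion receptor P-selectin, had 239, 165, 276 and 246 normalized counts in WT, 35.4, 22.6, 26.6 and 18.2 for ACLY KO, 27.5, 32.9 and 32.3 for ACSS2 KO and 23.5, 13.5 and 25.4 for DKO1. ACLY KO overlapped both other knockouts, at 11.1% for ACLY KO, 13.3% for ACSS2 KO and 8.96% for DKO1. Itpripl2 (chromosome 7 from 118485111 to 118491975) had 623, 579, 749 and 775 normalized counts in WT, 55.2, 54.3, 58.2 and 60.6 for ACLY KO, 54.1, 73.1 and 46.97 for ACSS2 KO and 39.7, 48.2 and 53.9 for DKO1. It kept 8.38% for ACLY KO, 8.52% for ACSS2 KO and 6.94% for DKO1, a similar share in each. Vstm5, an immunoglobulin-domain membrane protein, had 52.9, 49.4, 59.8 and 73.2 normalized counts in WT, 9.33, 11.3, 8.52 and 10.7 for ACLY KO, 5.23, 0.718 and 3.12 for ACSS2 KO and 8.21, 2.86 and 6.98 for DKO1. ACSS2 KO was lowest, at 5.14% of the WT mean. Gpr176 (an orphan receptor), Unc93b1 (a chaperone of endosomal Toll-like receptors), Syk (a tyrosine kinase of immune receptors) and Nipal1 had WT means between 20.8 and 27.2, near the lower limit of the rule.

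**Figure D2:**
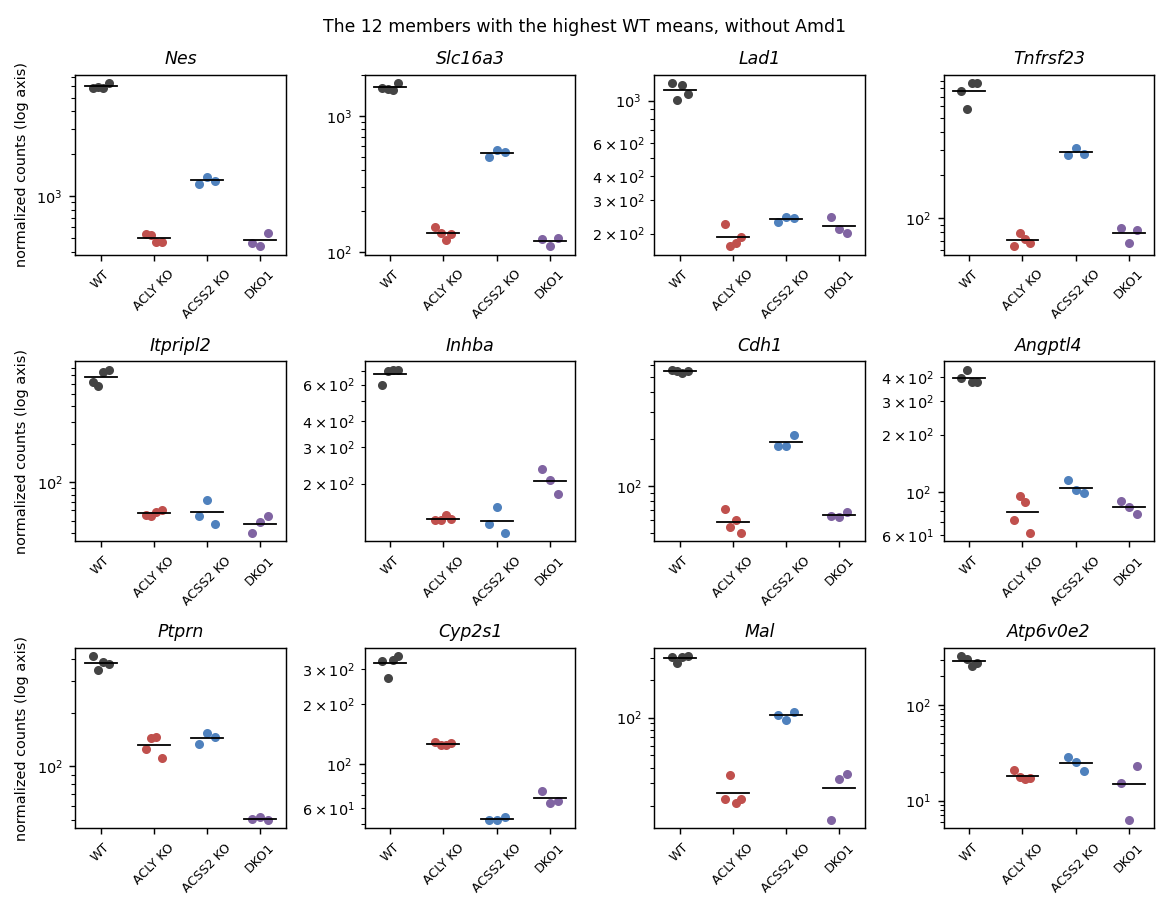
Each panel plots the normalized counts of a member (log axis) in the 14 libraries, with a line at each genotype mean, for the 12 members with the highest WT means other than Amd1. ACSS2 KO lies above ACLY KO and DKO1 for Nes, Slc16a3, Tnfrsf23, Cdh1 and Mal, while DKO1 is lowest for Ptprn and ACSS2 KO is lowest for Cyp2s1.

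Transporters formed a further group. Slc16a3 encodes MCT4, the exporter of lactate from glycolytic cells (chromosome 11 from 120948484 to 120959000), and had 1628, 1577, 1562 and 1766 normalized counts in WT, 152, 138, 123 and 137 for ACLY KO, 501, 566 and 549 for ACSS2 KO and 125, 110.1 and 127 for DKO1. ACSS2 KO libraries lay between WT and the ACLY-deficient libraries without overlap, and the means were 8.42% for ACLY KO, 32.97% for ACSS2 KO and 7.39% for DKO1. Mfsd2a, a transporter of lysophosphatidylcholine, had 148, 148, 151 and 169 normalized counts in WT, 30.4, 38.6, 25.6 and 32.1 for ACLY KO, 20.2, 13.7 and 17.7 for ACSS2 KO and 25.6, 18.2 and 23.1 for DKO1. Its lowest level was in ACSS2 KO, at 11.1% of the WT mean. Atp6v0e2, a subunit of the proton-pumping V-ATPase, had 323, 300.4, 255 and 278 normalized counts in WT, 20.96, 17.7, 16.97 and 17.2 for ACLY KO, 28.8, 25.5 and 20.6 for ACSS2 KO and 15.2, 6.23 and 22.9 for DKO1. It kept 6.29% for ACLY KO, 8.63% for ACSS2 KO and 5.10% for DKO1, and the knockout genotypes overlapped.

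Among the members are enzymes of lipid, amino acid and xenobiotic metabolism. Scd1, the stearoyl-CoA desaturase that makes monounsaturated fatty acids (chromosome 19 from 44394450 to 44407709), had 156, 126, 145 and 160.4 normalized counts in WT, 21.4, 20.8, 18.9 and 18.3 for ACLY KO, 22.3, 18.6 and 17.8 for ACSS2 KO and 22.4, 15.5 and 22.8 for DKO1. Its share was nearly the same in each knockout, at 13.5% for ACLY KO, 13.3% for ACSS2 KO and 13.8% for DKO1. The paralog Scd2, which is not a member, had a WT mean of 30150 and kept 83.7, 89.5 and 84.1%. Shmt1, the cytosolic serine hydroxymethyltransferase of folate metabolism, had 167, 153, 132 and 154 normalized counts in WT, 15.3, 27.3, 22.3 and 30.6 for ACLY KO, 16.4, 9.31 and 20.8 for ACSS2 KO and 28.6, 23.1 and 30.1 for DKO1. It kept 15.7% for ACLY KO, 10.2% for ACSS2 KO and 17.97% for DKO1. Bcat1, the cytosolic branched-chain aminotransferase, kept 38.00% for ACLY KO, 31.1% for ACSS2 KO and 31.8% for DKO1 of a WT mean of 98.7, among the largest remaining shares.

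Cyp2s1, a cytochrome P450, had 329.7, 271, 334 and 347 normalized counts in WT, 129, 124, 124 and 128 for ACLY KO, 52.3, 52.5 and 54.02 for ACSS2 KO and 73.4, 63.97 and 65.3 for DKO1. Its order differed from that of Nes, with ACLY KO highest at 39.5% of the WT mean and ACSS2 KO lowest at 16.5%. Ugt8a (a ceramide galactosyltransferase), Gcnt3 (a mucin-type glycosyltransferase), Hpdl, Sdr39u1, Gucy1a2 (a subunit of soluble guanylate cyclase), Ppm1j (a protein phosphatase) and Plcl2 (a phospholipase C-like protein) had WT means between 25.6 and 68.2. Mt2, a metal-binding metallothionein, had a WT mean of 74.6 and kept 11.9% for ACLY KO, 39.8% for ACSS2 KO and 13.97% for DKO1. Its neighbor Mt1 was not a member and kept 28.0, 91.6 and 50.1% of a WT mean of 173.

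Regulators of transcription were also present. Hnf4a, the hepatocyte nuclear factor (chromosome 2 from 163506811 to 163572907), had 154, 152, 193 and 189 normalized counts in WT, 39.99, 29.2, 27.3 and 18.2 for ACLY KO, 43.8, 30.7 and 44.8 for ACSS2 KO and 25.6, 16.4 and 25.4 for DKO1. The knockout libraries lay between 16.4 and 44.8, far under the lowest WT library at 152. Dmrta2, Sim2, Sox13 and Zfp536 are DNA-binding factors, and Med12l is a Mediator subunit. Dmrta2 kept 6.67% for ACLY KO, 21.1% for ACSS2 KO and 8.81% for DKO1 of a WT mean of 68.7. Sim2 had 37.99, 38.8, 39.9 and 41.5 normalized counts in WT, 5.69, 8.54, 9.29 and 7.27 for ACLY KO, 16.6, 13.1 and 14.5 for ACSS2 KO and 11.5, 16.9 and 11.7 for DKO1, and Med12l had 40.4, 22.8, 37.05 and 36.3 normalized counts in WT, 11.9, 10.4, 7.70 and 9.10 for ACLY KO, 4.45, 4.29 and 5.24 for ACSS2 KO and 11.3, 6.77 and 9.04 for DKO1. ACLY KO was the lowest genotype for Sim2, and ACSS2 KO was the lowest for Med12l. Morc4, a chromatin-associated ATPase on the X chromosome, had 147, 146, 125 and 153 normalized counts in WT, 10.8, 6.73, 12.1 and 15.1 for ACLY KO, 46.9, 41.2 and 57.5 for ACSS2 KO and 9.58, 11.7 and 17.5 for DKO1. ACSS2 KO stood above the other knockouts without overlap, at 34.02% of the WT mean.

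Further members have diverse or poorly known roles. Dnajc22, a J-domain co-chaperone, had 151, 194, 137 and 133 normalized counts in WT, 9.40, 13.2, 10.3 and 9.92 for ACLY KO, 42.5, 32.3 and 30.2 for ACSS2 KO and 22.5, 15.4 and 19.6 for DKO1, and Ifi27l2b had 116, 154, 142 and 147 normalized counts in WT, 10.5, 9.41, 16.3 and 9.88 for ACLY KO, 12.7, 12.2 and 10.4 for ACSS2 KO and 8.23, 15.3 and 15.97 for DKO1. The Dnajc22 libraries of the 3 knockouts did not overlap each other, whereas those of Ifi27l2b did. Syce2, a component of the meiotic synaptonemal complex, had 67.3, 111, 52.9 and 66.6 normalized counts in WT, 3.16, 6.69, 6.99 and 6.54 for ACLY KO, 23.1, 23.9 and 28.2 for ACSS2 KO and 14.6, 6.04 and 12.7 for DKO1. The noncoding transcript 9330188P03Rik had 73.7, 107, 90.4 and 104 normalized counts in WT, 5.94, 8.47, 11.99 and 4.99 for ACLY KO, 34.2, 42.7 and 34.4 for ACSS2 KO and 8.11, 11.6 and 8.11 for DKO1. ACSS2 KO was the highest knockout in both. Tex15 (a germ cell gene), Anxa13 (an annexin), Cln3 (a lysosomal membrane protein), Rtl6 (derived from a retrotransposon), Nol4, 2210016F16Rik and 4931428F04Rik were also in the set, with WT means between 25.2 and 103.

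Amd1, which encodes the polyamine enzyme S-adenosylmethionine decarboxylase, was an uncertain member. It had 2069.8, 4356, 1214 and 262 normalized counts in WT, 807, 217, 193 and 524 for ACLY KO, 1375, 436 and 0 for ACSS2 KO and 0, 216 and 242 for DKO1, so WT replicate 4 lay below several knockout libraries. Its near-identical copy Amd2 had a mean of 4329 in WT and means of 4458, 3578 and 4532 in ACLY KO, ACSS2 KO and DKO1. Summed over both copies, the means were 6305 ± 634 (SD, n = 4), 4893 ± 146 (SD, n = 4), 4182 ± 138 (SD, n = 3) and 4684 ± 413 (SD, n = 3). Reads shared by these copies can be split between them differently from library to library.

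**Figure D3:**
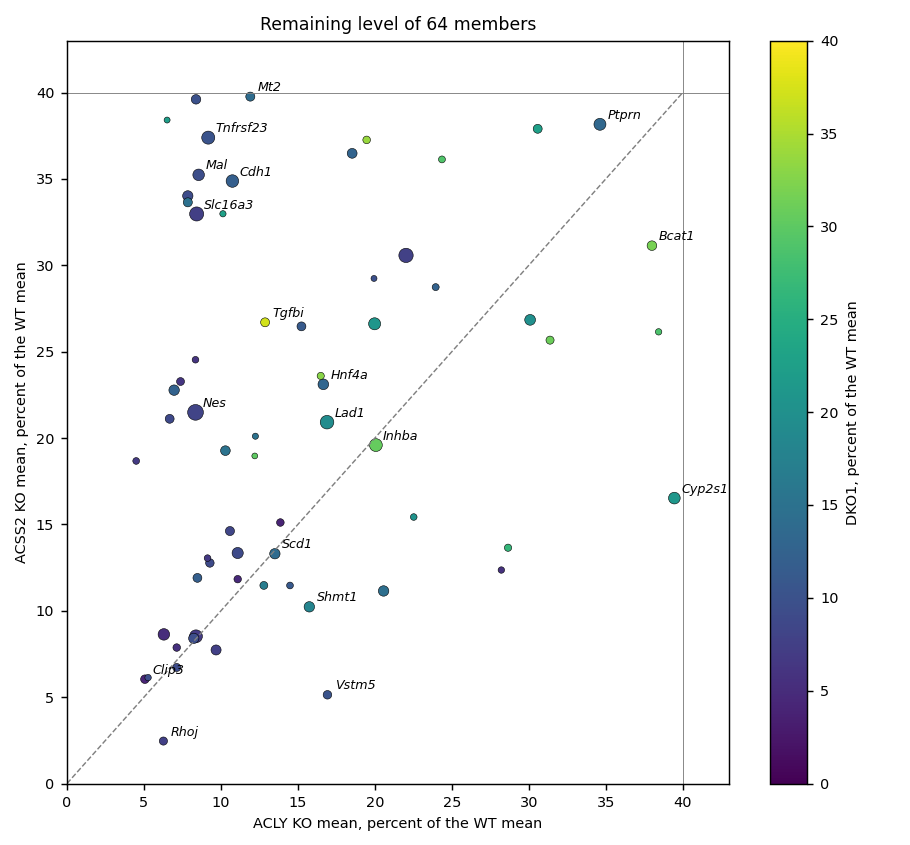
Each point is 1 of 64 members, placed by its ACLY KO mean (horizontal) and ACSS2 KO mean (vertical) as percent of the WT mean, with color for DKO1 and point area growing with the WT mean, and the gray lines mark the limit of 40%. Mal, Cdh1, Slc16a3 and Tnfrsf23 lie near the upper left, Cyp2s1 near the right edge and Rhoj near the origin.

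The knockout genotypes were then compared with each other, which addresses how far the low state was shared. For these tests, 12693 genes whose mean over the 14 libraries reached 10 were analysed with limma after log2(value + 1), with Benjamini-Hochberg adjustment over all of them. Of the 66 members, 59 passed this filter, and Crmp1, Dsc2, Gpr176, Nipal1, Sox13, Syk and Tex15 did not. The 14 libraries include WT, where the rule made the members high, and 23 of the 59 had a mean under 10 over the 10 knockout libraries and so passed only through WT. Counts over the 59 therefore describe these comparisons. They are given again for the other 36, with the filter on the knockout libraries alone, a choice made after seeing the data. That filter includes ACSS2 KO, so a member can pass it through a high level there. An example is 9330188P03Rik, with means of 7.85 for ACLY KO, 9.27 for DKO1 and 37.1 for ACSS2 KO. Counts over the 36 in comparisons with ACSS2 KO are therefore a description as well. The limits of the rule hold every knockout mean down, so these comparisons start from low values, and the added 1 understates fold changes at such levels. Fewer symbols met the limit in ACSS2 KO (1.13%) than in ACLY KO (5.04%) or DKO1 (5.48%). Selection by the rule can thus itself leave members nearer the limit in ACSS2 KO, and its part in the counts below was not tested. The 3 comparisons share libraries pairwise and are given side by side.

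In ACSS2 KO against ACLY KO, 20 of the 59 members were higher in ACSS2 KO (33.9%) and 4 were lower (6.78%), where 25.3% of all genes tested were higher and 23.1% lower. Of the 36 members kept by the filter on the knockout libraries, 17 were higher (47.2%) and 2 lower (5.56%), against 25.1 and 23.3% of all genes. The members counted as higher include some kept only through their ACSS2 KO values, such as 9330188P03Rik. The median log2 fold change was 0.32 over the members and -0.0068 over all genes tested. The 5 largest differences toward ACSS2 KO were in 9330188P03Rik (log2 fold change 2.16, standard error 0.26, adjusted p = 1.19e-05 from limma), Morc4 (log2 fold change 2.06), Mal (2.03), Tnfrsf23 (2.01) and Syce2 (1.97). Slc16a3 followed, with log2 fold change 1.96, standard error 0.087, adjusted p = 1.10e-09 from limma. Cdh1 was also higher, with log2 fold change 1.69, standard error 0.11, adjusted p = 4.93e-08 (limma), and so was Nes, with log2 fold change 1.36, standard error 0.083, adjusted p = 2.21e-08 (limma). The 4 members lower in ACSS2 KO were Vstm5 (log2 fold change -1.63, standard error 0.40, adjusted p = 0.00440), Cyp2s1 (log2 fold change -1.24, standard error 0.095, adjusted p = 2.06e-07), Med12l (log2 fold change -0.92, standard error 0.25, adjusted p = 0.00766) and Mfsd2a (log2 fold change -0.85, standard error 0.17, adjusted p = 0.00114), all from limma. Vstm5 and Med12l were tested only through their WT values, and were among the 23 not kept by the filter on the knockout libraries.

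In DKO1 against ACSS2 KO, 4 of the 59 members were higher in DKO1 (6.78%) and 22 were lower (37.3%), where 25.9% of all genes tested were higher and 27.8% lower. Of the 36 members, 3 were higher (8.33%) and 17 lower (47.2%), against 26.2 and 27.6% of all genes, and Med12l was not among the 36. The median log2 fold change was -0.41 over the members and 0.0059 over all genes tested. The members with the largest falls were Slc16a3 (log2 fold change -2.15, standard error 0.093, adjusted p = 1.11e-09 from limma), Mal (log2 fold change -1.95), 9330188P03Rik (-1.90), Tnfrsf23 (-1.86) and Morc4 (-1.86). Cdh1 had -1.53 and Nes -1.42. Hnf4a was lower in DKO1, with log2 fold change -0.81, standard error 0.26, adjusted p = 0.0197 from limma. The 4 higher members were Shmt1 (log2 fold change 0.83, standard error 0.28, adjusted p = 0.0233), Med12l (log2 fold change 0.80, standard error 0.26, adjusted p = 0.0210), Inhba (log2 fold change 0.64, standard error 0.12, adjusted p = 6.47e-04) and Cyp2s1 (log2 fold change 0.34, standard error 0.10, adjusted p = 0.0123), all from limma. When only the DKO1 and ACSS2 KO libraries were fitted, 15 members were called in place of 26, and Shmt1, Med12l and Cyp2s1 did not pass. Shmt1 did not pass either without ACSS2 KO replicate 2 (limma adjusted p = 0.114) or without DKO1 replicate 1 or 4 (limma adjusted p = 0.0519 and 0.0540), nor did Med12l without ACSS2 KO replicate 1 or 2 or DKO1 replicate 1 (limma adjusted p = 0.0534, 0.0604 and 0.0761).

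DKO1 was last compared with ACLY KO, the cells it was derived from. Of the 59 members, 5 were higher in DKO1 (8.47%) and 4 were lower (6.78%), where 14.3% of all genes tested were higher and 13.6% lower. Of the 36 members, 5 were higher (13.9%) and 3 lower (8.33%), against 14.3 and 13.6% of all genes. The median log2 fold change was -0.056 over the members and -0.0051 over all genes tested. Tgfbi was higher, with log2 fold change 1.46, standard error 0.23, adjusted p = 5.26e-04 from limma. Higher values were also found for Dnajc22 (log2 fold change 0.78, standard error 0.19, adjusted p = 0.00870), Sim2 (log2 fold change 0.72, standard error 0.20, adjusted p = 0.0169) and Inhba (log2 fold change 0.60, standard error 0.11, adjusted p = 0.00188), all from limma. The lower members were Ppm1j (log2 fold change -1.83, standard error 0.45, adjusted p = 0.00871), Ptprn (log2 fold change -1.34, standard error 0.11, adjusted p = 1.73e-06), Cyp2s1 (log2 fold change -0.90, standard error 0.095, adjusted p = 2.17e-05) and Il34 (log2 fold change -0.59, standard error 0.12, adjusted p = 0.00254), all from limma. Ppm1j had 20.9, 35.2, 20.6 and 25.5 normalized counts in WT, 5.69, 5.67, 12.6 and 4.83 for ACLY KO, 4.50, 2.90 and 2.07 for ACSS2 KO and 2.09, 0 and 2.30 for DKO1, so its values in DKO1 were near 0, and it was tested only through its WT values. A fit to just these 2 genotypes called 6 members in place of 9, and Ppm1j (limma adjusted p = 0.0571) and Sim2 (limma adjusted p = 0.0988) did not pass. Sim2 also did not pass without DKO1 replicate 3 (limma adjusted p = 0.0740).

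For members that missed the threshold, the intervals show how large a difference these libraries allow. In DKO1 against ACLY KO, the 95% interval of the log2 fold change was -0.23 to 0.12 for Nes, -0.34 to 0.36 for Scd1, -0.081 to 0.40 for Cdh1 and -0.85 to 0.21 for Hnf4a. For Scd1 it was -0.37 to 0.32 in ACSS2 KO against ACLY KO. For Hnf4a in the same comparison it was -0.040 to 1.02.

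**Figure D4:**
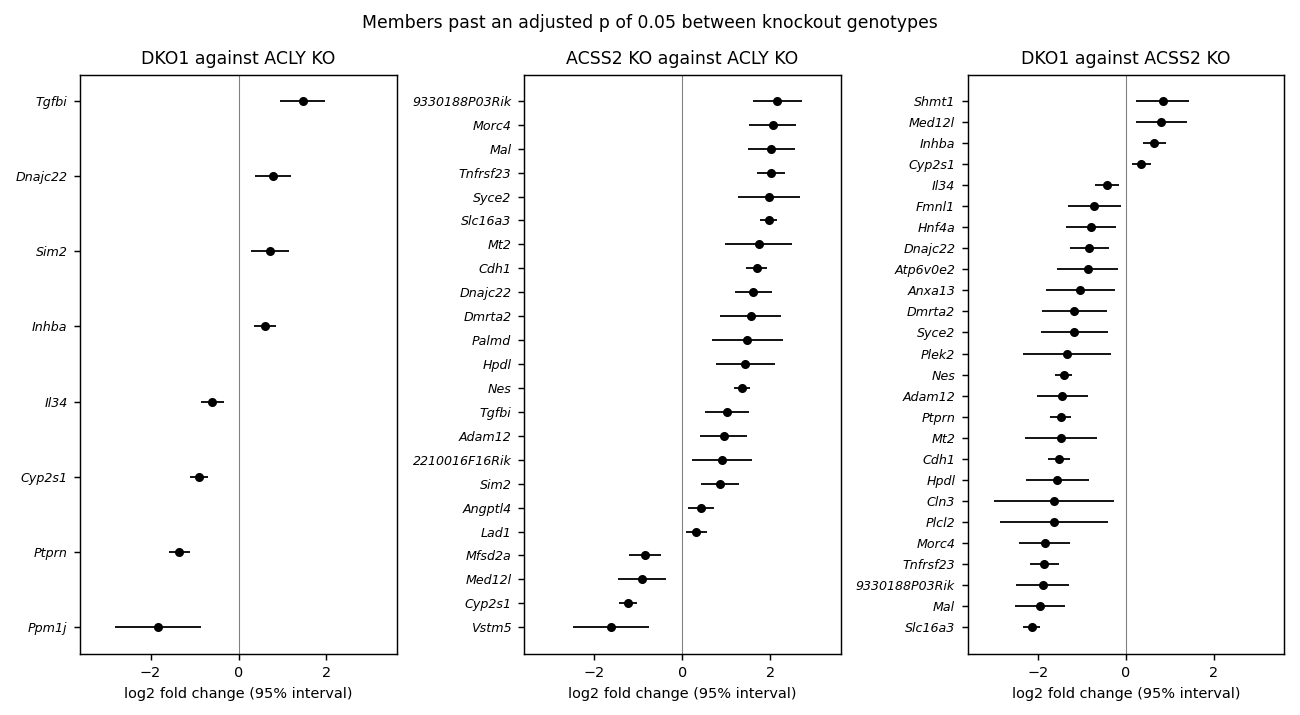
Points are log2 fold changes of log2(value + 1) and bars their 95% intervals, for the members shown that passed an adjusted p of 0.05 in each of 3 comparisons between knockout genotypes. The 19 members right of 0 in the middle panel and the 22 left of 0 in the right panel are members with a higher level in ACSS2 KO than in the other genotype of the panel, while the left panel holds 4 on each side.

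The members were spread over many gene classes. Of 20 epithelial adhesion and keratin genes with a WT mean of at least 20, Cdh1 and Dsc2 were members, while the number at most 0.4 of WT was 5 for ACLY KO, 2 for ACSS2 KO and 5 for DKO1. The median of this list was 65.8% of WT for ACLY KO, 89.1% for ACSS2 KO and 60.03% for DKO1. Marveld2, a tricellular junction gene, had 15.4% and 10.8% of its WT mean in ACLY KO and DKO1 but 91.0% in ACSS2 KO. Cdh17, encoding another cadherin, had 352, 86.1 and 446%. Of the 23 list genes tested in ACSS2 KO against ACLY KO, 12 were higher and 5 lower by limma, against 25.3 and 23.1% of all genes tested. In DKO1 against ACSS2 KO 4 were higher and 15 lower, against 25.9 and 27.8%, and in DKO1 against ACLY KO 3 were higher and 3 lower, against 14.3 and 13.6%.

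**Figure D5:**
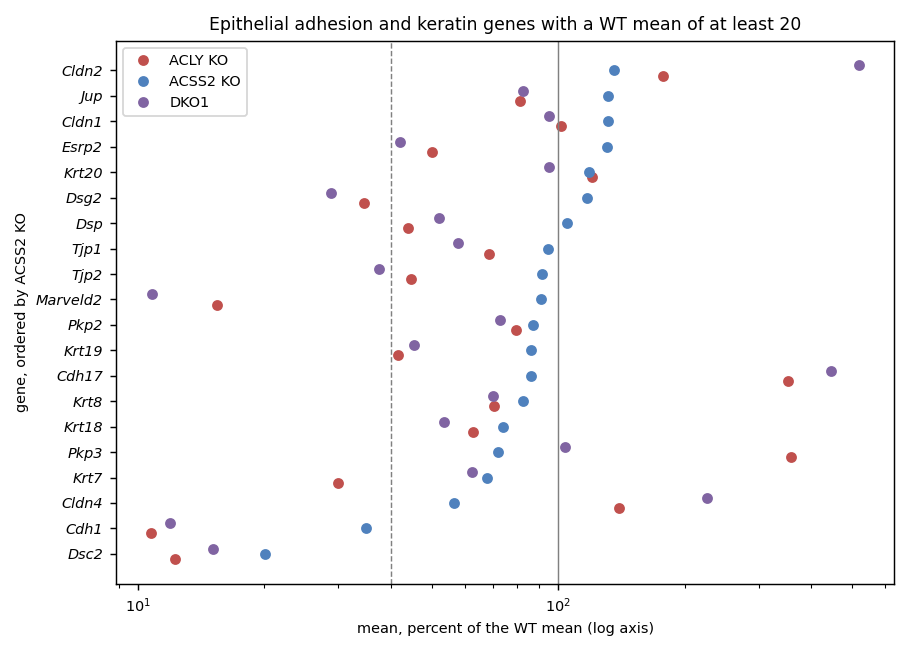
Points give the mean of each knockout genotype as percent of the WT mean (log axis) for the 20 epithelial adhesion and keratin genes with a WT mean of at least 20, with a dashed line at 40%. Cdh1 and Dsc2 have all 3 points left of the dashed line, and Marveld2 has those of ACLY KO and DKO1.

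Other lists gave few members. Growth factors and cytokines gave 2 of 38 genes (Inhba and Il34), mesenchymal genes 1 of 17 (Tgfbi) and hepatocyte markers 1 of 8 (Hnf4a). Cytochrome P450 genes gave 1 of 13 (Cyp2s1) and metalloproteases 1 of 23 (Adam12). A list of cadherins and protocadherins, which did not hold the desmosomal Dsc2, gave 1 of 20 (Cdh1). Large families gave 1 of 188 solute carriers (Slc16a3), 1 of 330 genes named Zfp (Zfp536) and 3 of 461 Gm and Rik transcripts. Each list gene was counted only where its WT mean was at least 20, and the share over all symbols was 0.565%. None of the 10 acetyl-CoA supply genes, 21 DNA methylation and histone deacetylation enzymes, 24 interferon response genes, 23 homeobox genes, 27 WNT pathway genes, 35 extracellular matrix genes or 19 imprinted genes was a member. The same held for 4 Y chromosome genes, 7 cholangiocyte markers, 19 collagens, 16 keratins, 15 chemokines, 9 serpins, 7 claudins and 15 tetraspanins.

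The members were spread over the genome. They lay on 20 chromosomes, with the most on chromosome 7 (8 of 845 symbols, 0.947%) and chromosome 8 (7 of 638, 1.10%). The nearest pair, 4931428F04Rik and Cdh1, was 1.314 Mb apart, and no pair lay within 1 Mb. By the annotation used, 65 were protein coding and 1 was a long noncoding RNA. The median exonic length was 4275 bases, against 4560 over symbols with a WT mean of at least 20. Exons of 16 members overlapped those of another gene, on the opposite strand for 14 of them, among which are Shmt1 (with Smcr8), Sdr39u1 (with Khnyn) and Cln3 (with Apobr). Whether the counting used strand is not given in the sources used here, so reads of such pairs may not be separated.

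Promoter sequences could be matched for 46 members and for 9253 symbols with a WT mean of at least 20. In the window of 300 bases, from 250 before to 50 after the start, the median GC content was 60.3% in the members and 61.3% over all. The median number of CpG dinucleotides was 18 against 22, and fewer than 10 were present in 12 members (26.1%) against 14.8% over all. Motif shares were taken in the same windows on both strands. The GC box was in 27 members (58.7% against 66.8% over all), the CCAAT box in 13 (28.3% against 39.4%) and the TATA box in 5 (10.9% against 6.59%). An AP-1 site (TGANTCA) was in 4 (8.70% against 4.63%), a TEAD site (GGAATG) in 7 (15.2% against 11.9%), an ETS core (CCGGAAG) in 4 (8.70% against 19.6%) and a MYC E-box (CACGTG) in 1 (2.17% against 10.5%). The cyclic AMP response element (TGACGTCA, 3.45% over all) and the C/EBP site (TTGCGCAA, 0.281% over all) were in 0 members.

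The edges of the rule were not marked by a gap. Just inside the limit of 40% were Mt2 (39.8% in ACSS2 KO), 9330188P03Rik (39.6% in ACSS2 KO) and Cyp2s1 (39.5% in ACLY KO), and just outside were Ptchd1 (40.1% in DKO1), Vgll3 (41.4% in DKO1) and Igfbp3 (41.7% in ACSS2 KO). Just inside the limit on the WT mean were Nipal1 (20.8), Gpr176 (21.8) and Syk (21.9), and just outside were Mb21d1 (19.9), Galm (19.2) and Gstm4 (18.96). Leaving out each library in turn gave between 64 and 68 members, and 52 of the 66 stayed whichever library was left out.

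The members differed in level and in the spread between libraries, and how far the level sets the spread was not tested. WT means of the members had a median of 70.8, with 26 members over 100 and 26 under 50. The medians of the knockout means were 9.70, 13.8 and 10.6 for ACLY KO, ACSS2 KO and DKO1, and 10 members were listed at 0 in at least 1 knockout library. The median coefficient of variation over the members was 17.5% for WT, 29.7% for ACLY KO, 20.3% for ACSS2 KO and 29.04% for DKO1, against 10.9, 6.11, 5.46 and 19.3% over all symbols with a WT mean of at least 20. Totals were between 23512975 and 26901953 normalized counts per library. WT replicate 2 was the lowest or highest WT library for 48 members, the others for 27 to 29. Members where it was lowest had a median exonic length of 4413 bases, and those where it was highest 2909. The same counts and lengths over all symbols are not given here. Whether they are particular to the members was therefore not tested. Without WT replicate 2, the rule again gave 66 symbols, 62 of them shared. Without DKO1 replicate 4, the library with the highest total, it gave 68, of which 65 were shared.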

How the data were processed

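The authors isolated poly(A) RNA, made libraries with a directional kit, aligned reads to GRCm38 using STAR, and normalized with DESeq2 (version 1.0.1 per the submitters' processing notes). The deposited signal values, called normalized counts here, were obtained by the authors by dividing estimated read counts by a factor specific to the gene and library. As they are no longer whole reads, no counting interval or count test was used, and errors are the spread between libraries. The gene annotation, the counting tool and its use of strand are not given in the sources used here. Of 24972 deposited symbols, 26 had turned into dates and were left out.

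Libraries were grouped by the sample titles. The members and all gene lists were chosen with earlier results of these data known. Values of every library are printed for the 25 members with the highest WT means and for the members with the 5 largest called differences in each direction of each comparison between knockouts. A few other members were added by role, and 2 of the 66 members are counted but not reported here.

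Comparisons between knockouts were fitted in R 4.3.3 with limma 3.58.1 (intensity trend, log2(value + 1), gene means of 10 or more, a coefficient per genotype, a spread shared by all 14 libraries) and called at an adjusted p under 0.05. The procedure was tested on simulated data. Replicate numbers were not treated as pairs. Of 18 same-numbered pairs, 5 had deviations correlated above 0.1 (range -0.43 to 0.45), which cannot settle whether the libraries were paired. Between libraries of different numbers, the correlation reached 0.62 (WT replicate 2 with DKO1 replicate 4) and -0.50 (WT replicate 2 with DKO1 replicate 3). Some spread between libraries was thus shared across genotypes, and its source was not tested. Positions and promoters came from RefSeq, and exonic lengths and exon overlaps from GENCODE. Both are on GRCm38 and may differ from the annotation of the authors. Alternatives covered the limits of the rule, the added constant, the filter, 2 other normalizations, the fitted libraries, the call limits, a replicate block, a filter on the knockout libraries alone and each library left out in turn.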

Additional observations from a re-analysis of the deposited data

Results flagged for a closer look

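Each member was screened in WT and in ACLY KO, the genotypes with 4 libraries, for a library that lay far from the other 3 by Dixon's test. Of 132 groups of 4 libraries, 15 held such a library. The nominal rate of about 1 in 20 assumes independent groups. These groups share the same libraries and some hold only a few normalized counts, so the count cannot be set against that rate. In the members concerned, every knockout library lay under every WT library.

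In WT, Inhba had 597 normalized counts in replicate 1, against 697 to 708 in the others, and Mfsd2a had 169 in replicate 4, against 148 to 151. WT replicate 2 was the far library for Mal (269.7, others 302.5 to 306), Adam12 (62.8, others 123 to 128) and Tpm2 (65.3, others 40.4 to 43.95).

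In ACLY KO, replicate 2 was high for Mal (34.8, others 21.1 to 22.8), Plek2 (13.2, others 9.43 to 9.96) and Clip3 (4.69, others 2.33 to 2.56). Replicate 3 was high for Ifi27l2b (16.3, others 9.41 to 10.5), Fmnl1 (33.1, others 16.2 to 18.9) and Ppm1j (12.6, others 4.83 to 5.69). Replicate 4 was high for Unc93b1 (8.12, others 5.27 to 5.66). Replicate 1 was high for Anxa13 (5.93, others 3.33 to 3.76) and low for Syce2 (3.16, others 6.54 to 6.99), and Tex15 was listed at 0 in it, against 1.67 to 1.92 in the others.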

How the results depend on the processing

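The rule gave 66 members. With a ratio limit of 0.3 or with a WT mean of at least 50 it gave 40. It gave 92 with a ratio limit of 0.5, 84 with a WT mean of at least 10, 69 with medians in place of means, 83 with quantile normalization and 55 with equal library totals, and between 64 and 68 with each library left out in turn. The members called between knockouts numbered 9 in DKO1 against ACLY KO (9 to 12 with a library left out), 24 in ACSS2 KO against ACLY KO (22 to 26) and 26 in DKO1 against ACSS2 KO (20 to 27). At an adjusted p under 0.01 and an absolute log2 fold change over 1.5 they fell to 1, 11 and 7. With only the 2 genotypes compared in the fit, DKO1 against ACLY KO gave 6 and DKO1 against ACSS2 KO gave 15, from fewer libraries. A replicate block gave 9, 25 and 22 calls, though nothing shows that the numbers pair the libraries. With the filter on the mean of the 10 knockout libraries, an alternative chosen after seeing the data, 36 members in place of 59 were tested, and 8, 19 and 20 were called in the 3 comparisons. Of 26 named fold changes between knockouts, 21 kept their direction and their side of the threshold in every alternative run that could test them, and none reversed. The filter on the knockout libraries left Ppm1j, Vstm5 and Med12l untested. The exceptions were Sim2 and Ppm1j in DKO1 against ACLY KO and Shmt1, Med12l and Cyp2s1 in DKO1 against ACSS2 KO, which each lost their call in at least 1 alternative, and the cause was not tested. Low values limit these comparisons, since the median knockout mean was near 10 normalized counts.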

Other observations

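The genes next to the set were those low in both single knockouts but not in DKO1. Of 80 symbols at most 0.4 of WT in ACLY KO and ACSS2 KO, 14 were above this limit in DKO1, although DKO1 was derived from ACLY KO cells. They included 4 Y chromosome genes. Ddx3y, a Y-linked RNA helicase, had a mean of 1633 in WT, 356 and 322 in ACLY KO and ACSS2 KO, and 4629.8 in DKO1, and Uty, Eif2s3y and Kdm5d had 316, 296 and 226% of the WT mean in DKO1. Cpt1c, a carnitine palmitoyltransferase isoform, kept 11.2% in ACLY KO and 13.7% in ACSS2 KO and had 102% in DKO1. Eif3j1, which has a near-identical copy in the genome, was listed at 0 in every ACLY KO and ACSS2 KO library and had a mean of 60.2 in DKO1 against 66.99 in WT. Gm44505 had 5.51, 5.20 and 116% and Spin4 9.29, 10.9 and 81.7% of WT in ACLY KO, ACSS2 KO and DKO1. The genes named here were chosen after their values were seen, and these levels were not tested.

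The number of symbols high in a single genotype was not largest for WT. Applying the same limits with another genotype in the place of WT gave 80 symbols for ACLY KO, 232 for ACSS2 KO and 146 for DKO1, against 66 for WT. These counts are descriptions of the same 14 libraries.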
